A study of Mus musculus with 30 samples.

Results

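Genes of the DNA replication machinery were followed through sorted luminal and basal mammary cells: the MCM helicase subunits Mcm2, Mcm3, Mcm4, Mcm5, Mcm6 and Mcm7, the sliding clamp Pcna, the ribonucleotide reductase subunits Rrm1 and Rrm2, and the thymidylate synthase Tyms. The 10 genes were chosen by name, and all 10 were among the 11137 genes measured. Expression was measured by 3′ mRNA sequencing, which reads the end of each transcript, in 30 libraries from 17 mice, by the numbers in the sample titles. In K8iΔRank mice (K8rta:TETO CRE:RANK fl/fl:mTmG), doxycycline switches on a Cre recombinase under the Krt8 promoter, which removes Rank (Tnfrsf11a) from luminal cells and turns on GFP. K8imTmG controls (K8rta:TETO CRE:mTmG) carry every element except the floxed Rank alleles. All mice drank doxycycline at 1 mg/ml, so both genotypes recombined the mTmG reporter, and basal cells of both genotypes keep Rank. By the labels doxycycline ran from week 3 to week 8, while the study's methods give a start at week 4 and 4 weeks of treatment. Luminal cells came from 3 virgin and 5 parous K8imTmG mice and from 3 virgin and 4 parous K8iΔRank mice, and basal cells from 3, 4, 4 and 4 mice in the same order. Parous mice had been through pregnancy and the time after it, so neither stage is a pregnant or lactating gland, and the labels give no age at collection. By the study's methods, control pups were removed on lactation day 10, and 30 days of involution followed. K8iΔRank mice failed to lactate at day 1, and 30 days were left to mimic involution. Rank loss and lactation history thus cannot be told apart between the parous genotypes. The labels do not say which exons of Rank are floxed, so a 3′ tag level of Tnfrsf11a does not check the deletion: its mean was 14.1 normalized counts in virgin luminal K8imTmG cells and 18.1 in K8iΔRank cells, and 39.5 and 33.7 in parous luminal cells. A normalized count is a read count divided by the size factor of its library.

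Replication starts from origins on which the 6 MCM proteins have been loaded as a ring, the core of the helicase that later unwinds the DNA. Pcna encircles the new duplex and holds polymerases and repair enzymes at the fork, Rrm1 and Rrm2 form the enzyme that turns ribonucleotides into deoxyribonucleotides, and Tyms makes thymidylate, the pyrimidine nucleotide that only DNA uses. Transcription of this group is raised as cells pass from G1 into S phase, in large part through E2F factors, so its messages are widely read as a sign of cells preparing or copying their DNA. In the adult mammary gland such cells are a minority, and their number rises with the hormones of the estrous cycle and of early pregnancy. In RNA from bulk sorted cells, fewer cells of a type and less RNA per cell cannot be told apart.

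The promoters of the members are shown first because E2F is the regulator the group is known for. In GRCm39, windows from 250 bases before to 50 bases from the start of the canonical GENCODE vM39 transcript were searched on both strands for the E2F letters TTTGGCGC, TTTCCCGC, TTTCGCGC and TTTGCCGC. Of the 10 members 4 held at least 1 match: Mcm3, Mcm4, Mcm5 and Mcm6, all helicase subunits. The same letters stood in 2.82% of 21757 windows of protein-coding genes, in 3.92% of those in the table, in 16 of 70 windows of other replication genes (22.9%), and in 1 of 17 windows of mitosis genes. Matches are written 5′ to 3′ on the gene's strand with the matched letters in capitals and flanks in lower case, and distances count from 0 at the transcript start.
Mcm3, chr1:20890499-20890528, minus strand, first capital at 19 bases, inside the transcript, opposite orientation: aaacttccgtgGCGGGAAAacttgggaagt
Mcm3, chr1:20890487-20890509, minus strand, at 38 bases: acttgggaagtTTTGGCGCcaag
Mcm4, chr16:15455470-15455499, minus strand, at -224 bases: ccggccccgggTTTCCCGCcaaaacgcaat
Mcm4, chr16:15455324-15455353, minus strand, at -78 bases: agctacacgccTTTGCCGCtgtgattggcc
Mcm5, chr8:75835973-75836002, plus strand, at -156 bases: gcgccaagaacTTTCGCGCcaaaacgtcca
Mcm6, chr1:128287534-128287563, minus strand, at -100 bases: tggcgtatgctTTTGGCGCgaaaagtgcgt
Mcm6, chr1:128287471-128287500, minus strand, at -37 bases: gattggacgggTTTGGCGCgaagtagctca
The Mcm5 match and the first of Mcm6 each overlap another E2F match on the opposite strand, at -152 and -96 bases. The CCAAT letters of NF-Y stood in 7 of 10 member windows and 39.9% of all windows, and TTTGAA, the CHR letters known from mitotic genes, in 2 of 10 against 17.1% of all windows and 9 of 17 windows of mitosis genes. A match is a description of letters and not of a bound site, and the windows of Mcm2, Mcm7, Pcna, Rrm1, Rrm2 and Tyms held none of these E2F letters.

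Depth ran from 340445 to 3130419 reads a library, so that 1 read was worth 0.381 to 5.43 normalized counts. Identity was plain: 12 luminal markers summed to 4767 to 20465 normalized counts in luminal and 613 to 1899 in basal libraries, and 10 basal markers to 65.3 to 331 and 10952 to 17879. The libraries fell into 2 sets that the labels do not name, by Clec2d, a lectin gene read at 8.68 normalized counts or less in 16 libraries and at 65.6 or more in 14. Clec2d-high libraries were shallower, with a median of 878946 reads against 2478110, and gave 3.36 to 6.37% of their reads to mitochondrial genes against 1.66 to 3.13%. The sets cut across the design: virgin luminal K8imTmG, parous luminal K8iΔRank and virgin basal K8iΔRank libraries were all low. Virgin luminal K8iΔRank and both basal K8imTmG groups were all high. Parous luminal K8imTmG (532, 534 and 558 low, 494 and 557 high) and parous basal K8iΔRank (787 and 798 low, 794 and 830 high) were mixed. Genotype in virgin mice, in either lineage, parity in luminal K8iΔRank cells and lineage in virgin mice, of either genotype, thus compare 1 side with the other, and there side and condition cannot be told apart. Within-side values are given wherever both groups have libraries on 1 side, and elsewhere those of 1 fit of all 30 libraries with the side as a covariate, where the side difference is estimated from the mixed groups alone.

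Pcna had the highest median of the members and Rrm2 the lowest. With 3′ tags the length of a transcript does not scale its count. Other differences in tag yield between genes were not measured, so the order of genes is approximate. The median over 30 libraries was 171 normalized counts for Pcna, 98.2 for Mcm6, 66.1 for Mcm7, 58.0 for Mcm3, 48.1 for Mcm4, 38.6 for Rrm1, 30.1 for Mcm5, 18.9 for Tyms, 16.5 for Mcm2 and 5.77 for Rrm2. Medians of the helicase subunits, which stand in equal numbers in the ring, spanned from 16.5 to 98.2 normalized counts. The median log2 difference of Mcm4 minus Mcm3 was -1.34 in Clec2d-low and 1.18 in Clec2d-high libraries, so their order depended on the side. Rrm2, the small subunit that limits the reductase in cycling cells, was at 3 reads or fewer in 8 libraries and at 0 in 5 of them. Mcm2 was at 3 reads or fewer in 5 libraries, Mcm3, Mcm5 and Tyms in 2 each, and the other members in none.

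**Figure D1:**
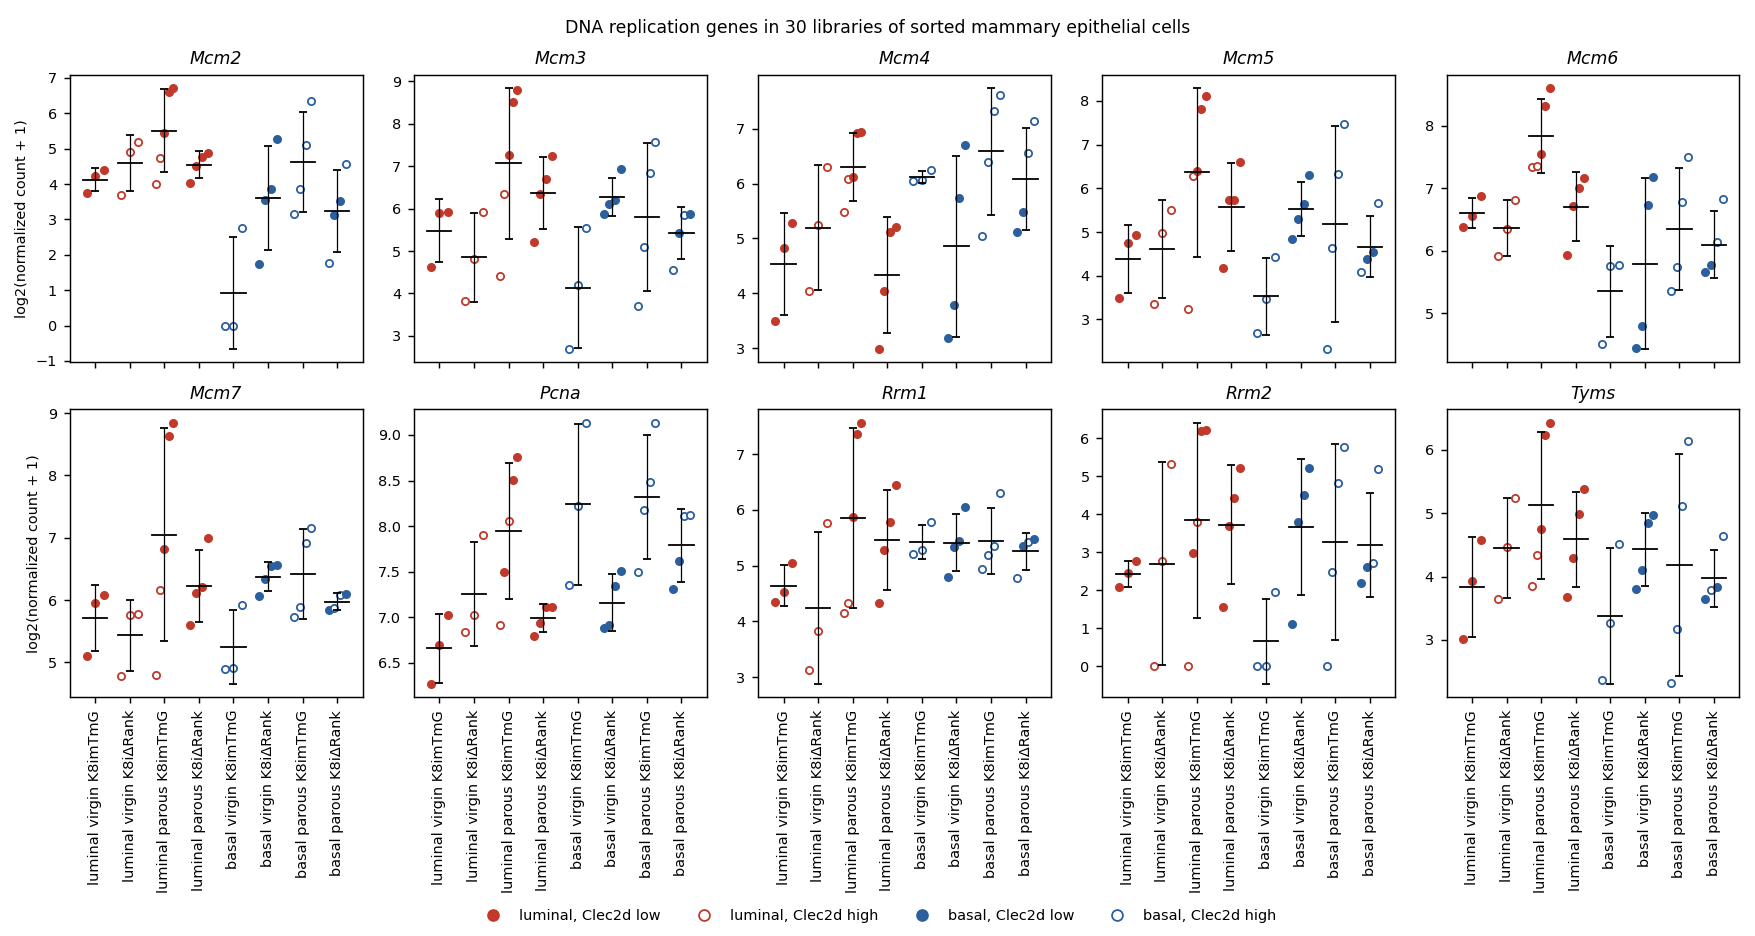
Normalized counts of each member in every library, by group (log2 axis of normalized count + 1). Points are libraries, filled where Clec2d was low and open where it was high, horizontal lines are group means and bars are SDs. The 2 highest points of the parous luminal K8imTmG group are mice 532 and 534 in most panels, as in Mcm3 at 364 and 444.

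Luminal cells of parous K8imTmG mice held the highest mean of 8 members, with Mcm4 and Pcna as the exceptions, which were highest in basal cells of parous K8imTmG mice. The mean of the 10 members on the log2(normalized count + 1) scale was 6.29 ± 1.35 (SD, n = 5) in parous luminal K8imTmG, 5.62 ± 1.35 (n = 4) in parous basal K8imTmG, 5.45 ± 0.72 (n = 4) in parous luminal K8iΔRank, 5.31 ± 0.80 (n = 4) in virgin basal K8iΔRank, 5.17 ± 0.53 (n = 4) in parous basal K8iΔRank, 4.97 ± 0.89 (n = 3) in virgin luminal K8iΔRank, 4.84 ± 0.26 (n = 3) in virgin luminal K8imTmG and 4.30 ± 0.39 (n = 3) in virgin basal K8imTmG. No neighbours in this order differed by more than the larger of their SDs except virgin luminal and virgin basal K8imTmG, whose ranges of 4.59 to 5.10 and 3.90 to 4.69 still overlapped. Spread was widest in the parous K8imTmG groups, in both of which mice 532 and 534 stood above the rest. The 4 highest libraries of all were luminal 534 (7.68), luminal 532 (7.52), basal 534 (7.10) and basal 532 (6.29).

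Parity was compared first in K8imTmG controls, where Rank was present in both lineages. In luminal cells Mcm4 was at 37.8, 27.3 and 10.3 normalized counts in the virgin mice (531, 533 and 538) and at 43.7, 120, 122, 67.1 and 68.8 in the parous mice (494, 532, 534, 557 and 558), and Mcm6 at 92.9, 116 and 82.4 against 163, 316, 389, 160 and 186. For these helicase subunits every parous library exceeded every virgin one. Mcm3 was at 23.7, 58.2 and 59.6 in virgin and at 20.2, 364, 444, 79.9 and 151 in parous mice. Here mouse 494 lay below all virgin mice, and 532 and 534 lay far above. Pcna was at 129, 102 and 75.8 in virgin and at 119, 363, 431, 265 and 180 in parous mice, and overlapped only through mouse 494.

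None of the 10 members passed limma (adjusted p under 0.05), where 2.2% of 10279 genes did, although all 10 differences were above 0, as were 49.6% of all genes. Unadjusted p was under 0.05 for 4 of the 10 members. On the recovered reads DESeq2 called 7 of the 10 and edgeR 0. The shares of all genes under these rules are not given here. The log2 differences ran from 1.22 to 1.98 with a median of 1.36, against -0.01 for all genes tested. Mcm4 differed by 1.78 (SE 0.45, limma adjusted p = 0.0758) and Mcm6 by 1.23 (SE 0.33, limma adjusted p = 0.0800); groups did not overlap, with the parous one higher, for these 2 members and for 7.08% of genes. Pcna differed by 1.29 (SE 0.40, limma adjusted p = 0.113), Mcm5 by 1.98 (SE 0.94, limma adjusted p = 0.252) and Rrm2 by 1.41 (SE 1.23, limma adjusted p = 0.531). Without mouse 494, a Clec2d-high library, Mcm5 (2.77, adjusted p = 0.0224), Pcna (1.55, adjusted p = 0.0280), Mcm4 (1.99, adjusted p = 0.0308) and Mcm6 (1.35, adjusted p = 0.0410) passed limma. Each of the 8 mice was left out in turn, and removing any mouse other than 494 called no member. The share of all genes called without mouse 494 is not given here.

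Within the Clec2d-low side, which leaves the 3 virgin mice and parous mice 532, 534 and 558, 9 of 10 members rose with parity in luminal K8imTmG cells, by limma, where 12.8% of 10014 genes passed in either direction. The median difference of the members was 2.22, against 0.01 for all genes. Mcm5 rose by 3.06 (SE 0.52, limma adjusted p = 0.0157), Mcm3 by 2.71 (SE 0.48, limma adjusted p = 0.0170), Mcm7 by 2.39 (SE 0.52, limma adjusted p = 0.0281) and Rrm1 by 2.30 (SE 0.44, limma adjusted p = 0.0201). Mcm2, Mcm4, Tyms, Pcna and Mcm6 rose by 2.13, 2.13, 1.97, 1.60 and 1.55. Rrm2 differed by 2.70 (SE 0.81, limma adjusted p = 0.0621), from 3.20, 5.77 and 4.42 normalized counts in virgin mice to 72.8, 71.5 and 6.92 in mice 532, 534 and 558. With 3 mice a group, mice 532 and 534 carry much of this difference, and the side was separated after the values of Clec2d had been seen. In 1 fit of all 30 libraries with the side as a covariate, Mcm7 (1.91, adjusted p = 0.0224), Rrm1 (1.87, adjusted p = 0.0376) and Pcna (1.34, adjusted p = 0.0378) passed, and the median was 1.83. The share of all genes called in that fit is not given here, so the number of members called cannot be set against it. The milk protein genes, a sign of secretory cells, were also apart over all 8 luminal K8imTmG libraries, with sums of 263 to 697 normalized counts in virgin and 4837 to 8822 in parous mice. Luminal markers went the other way without overlap, from 15355 to 20465 in virgin to 4767 to 11416 in parous mice, and endothelial markers were at 7.36 to 37.8 (median 33.6) against 3.36 to 16.0 (median 6.00). The part of these genes in the members' difference was not tested.

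The wider replication machinery in luminal K8imTmG cells was read from lists of origin licensing, helicase activation, polymerase, clamp and fork, Okazaki fragment, nucleotide supply, chromatin and S phase regulator genes. Of 71 genes tested with all 8 libraries, 63 lay above 0 and 3 rose, with a median of 0.93. These were Rnaseh2b, a subunit of the enzyme that cuts RNA out of DNA (1.63, limma adjusted p = 0.0227), Gins2, a subunit of the active helicase (1.84, limma adjusted p = 0.0436), and Tipin, a fork protection factor (1.89, limma adjusted p = 0.0486). All 9 origin licensing genes and all 6 chromatin replication genes lay above 0, with medians of 0.70 and 1.49, and none of them passed. Mitosis genes had a median of 1.90 and none of 17 passed; Mki67, the proliferation antigen, differed by 1.38 (SE 1.35, limma adjusted p = 0.579).

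In basal K8imTmG cells, all on the Clec2d-high side, members again lay above 0 in 10 of 10 cases, as did 50.2% of genes, with a median difference of 1.09, and none passed limma. No gene of 10538 did (0%; 969 had an unadjusted p under 0.05, 2 members among them; DESeq2 called 44 genes and edgeR 8, none a member). Mcm7 was at 28.7, 28.9 and 59.8 in virgin mice 531, 538 and 568 and at 119, 142, 51.8 and 58.0 in parous mice 532, 534, 557 and 558. The difference was 1.18 (SE 0.40, limma adjusted p = 0.410). Mcm2 was represented by 4 reads in the 3 virgin libraries together, all in mouse 531, and by 60 reads in the 4 parous ones, which gives a depth-scaled ratio of 8.49 with an exact 95% interval of 3.15 to 32.2. Rrm2 had 2 reads against 37, a ratio of 10.5 (2.70 to 89.7). These intervals cover counting error and not the spread between mice: parous Mcm2 stood at 33.5, 80.2, 7.96 and 13.7 normalized counts. Pcna and Rrm1 differed by 0.08 (SE 0.40) and 0.02 (SE 0.36). As in luminal cells, the Mcm3 values of 113 and 190 in mice 532 and 534 contrasted with 11.9 and 33.0 in mice 557 and 558.

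Luminal Rank deletion was next compared in parous mice, where the control group is the one just described, so that both comparisons share its 5 libraries. Members were lower in K8iΔRank luminal cells in 10 of 10 cases, as were 46.6% of genes, with a median of -0.81, while the median of all genes was 0.04. None passed limma, and only 0.0991% of 10090 genes did (10 genes; 2009 had an unadjusted p under 0.05). Mcm4 was at 33.9, 6.88, 36.2 and 15.4 normalized counts in K8iΔRank mice 787, 794, 798 and 830, all under the lowest control of 43.7, and differed by -1.97 (SE 0.47, limma adjusted p = 0.102). Mcm6 was at 103, 59.9, 128 and 143, again all under the lowest control of 160, and differed by -1.13 (SE 0.33, limma adjusted p = 0.129). Groups did not overlap in that direction for 4.24% of genes. Pcna was tight in K8iΔRank cells at 137, 110, 122 and 137, against 119 to 431 in controls, and differed by -0.96 (SE 0.33, limma adjusted p = 0.166). Milk protein genes summed to 1672 to 4068 in K8iΔRank against 4837 to 8822 in control libraries, and their part in the members' differences was not tested.

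The subunits whose control values were most divided showed wider errors. Mcm3 was at 79.9, 35.9, 102 and 149 in K8iΔRank luminal cells, inside the control range of 20.2 to 444, and differed by -0.70 (SE 0.80, limma adjusted p = 0.648). Rrm2, at 11.8, 1.97, 20.6 and 36.3 against 0 to 72.8, differed by -0.11 (SE 1.21, limma adjusted p = 0.972). Within the Clec2d-low side, which drops control mice 494 and 557, all 10 members were lower, with a median of -1.59 against 0.004 for all genes, and none passed limma (0.416% of 10101 genes did). There Mcm2 differed by -1.71 (SE 0.33, limma adjusted p = 0.0539), Pcna by -1.27 (SE 0.27, limma adjusted p = 0.0594), Mcm4 by -2.32 (SE 0.51, limma adjusted p = 0.0610) and Rrm2 by -1.40 (SE 0.96, limma adjusted p = 0.373). DESeq2 on the recovered reads of all 9 libraries called Mcm4 (-1.90), Mcm6 (-1.20) and Pcna (-1.14) lower, and edgeR called none. The share of all genes that DESeq2 called is not given here. In limma 3 members had an unadjusted p under 0.05. Of 70 other replication genes 59 lay below 0 with a median of -0.51, none passed, and all 6 helicase activation, 6 chromatin and 6 S phase regulator genes were among those below 0; 16 of 17 mitosis genes lay below 0 too, with a median of -0.80.

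**Figure D2:**
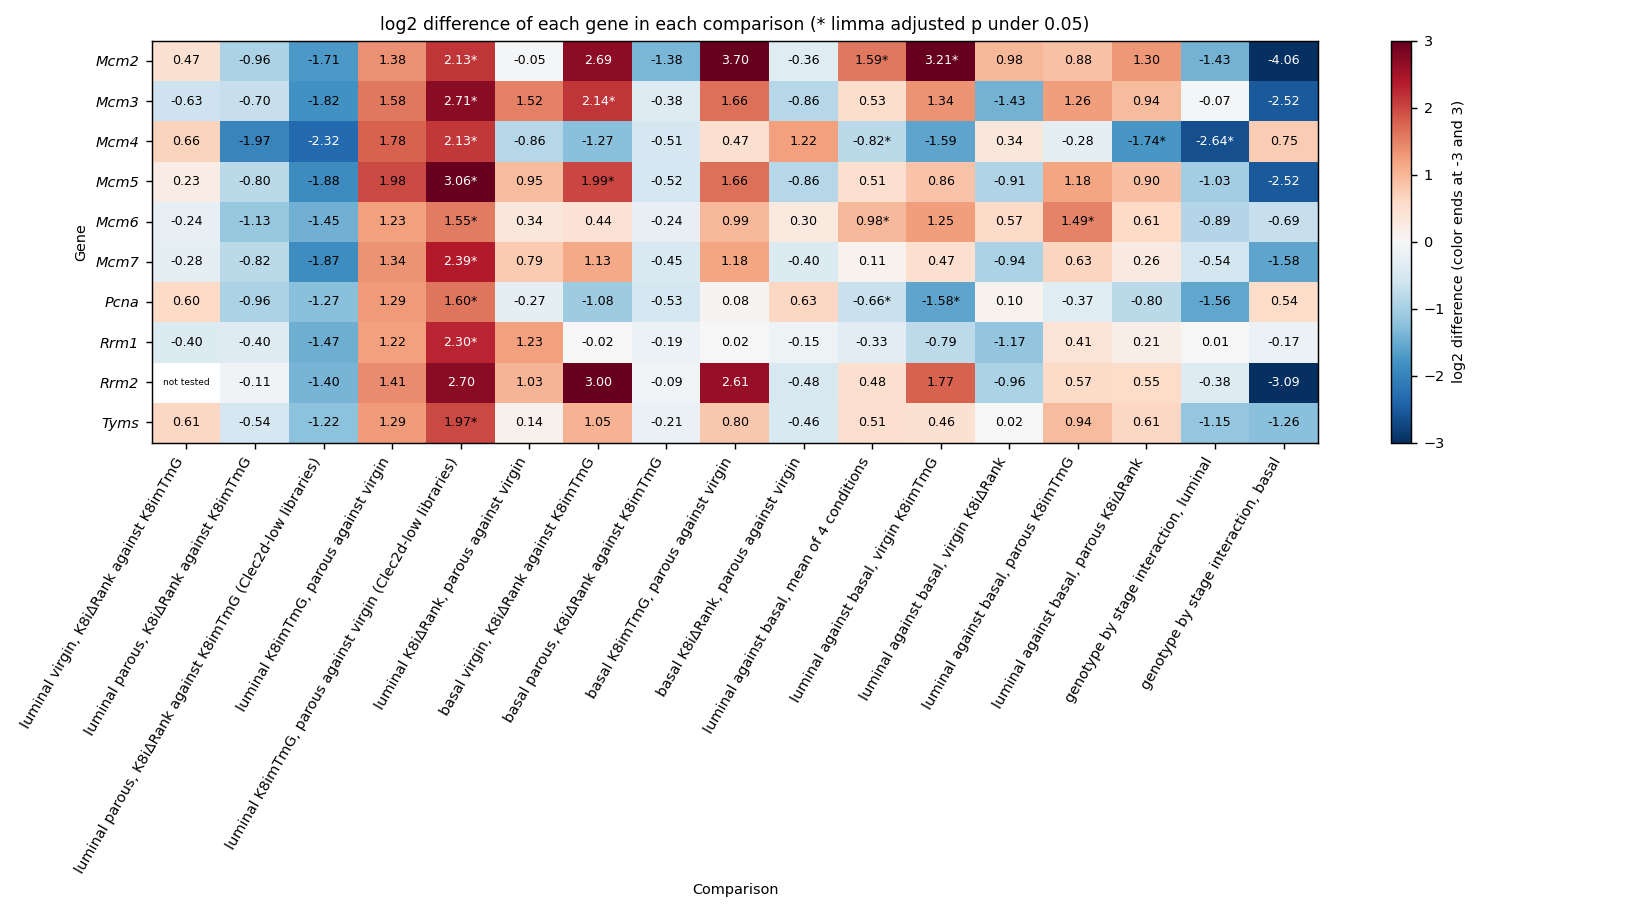
Log2 difference of each member (rows) in each comparison (columns), red where the first-named group is higher and blue where it is lower, with a star at a limma adjusted p under 0.05. The column of luminal parity in K8imTmG is red throughout (1.22 to 1.98) and that of the parous luminal genotype comparison blue throughout (-1.97 to -0.11); fitted values of Mcm2 and Rrm2 against virgin basal K8imTmG cells rest on 4 and 2 reads in that group.

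In virgin luminal cells genotype made no difference that passed limma in any of the 9 members tested, where 0.984% of 10066 genes passed (99 genes; 2226 had an unadjusted p under 0.05, none of them a member), and neither DESeq2 nor edgeR called any. Pcna was at 129, 102 and 75.8 in K8imTmG and at 238, 113 and 129 in K8iΔRank mice 821, 822 and 825, a difference of 0.60 (SE 0.33, limma adjusted p = 0.315). Mcm3 was at 23.7, 58.2 and 59.6 against 59.3, 26.9 and 13.2, a difference of -0.63 (SE 0.53, limma adjusted p = 0.515). Mouse 821 was the highest of the 3 virgin K8iΔRank mice in 9 of 10 members: its Rrm2 stood at 39.1 against 5.77 and 0 in 822 and 825, and Rrm2 did not reach the filter for the test. All controls were Clec2d-low and all K8iΔRank libraries Clec2d-high. The median difference of the members, 0.23, became negative in 3 of 17 alternative settings, down to -0.22, and was 1.18 with the side as a covariate, where again none passed.

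With parity in luminal K8iΔRank cells, Mcm3 was at 59.3, 26.9 and 13.2 in virgin and at 79.9, 35.9, 102 and 149 in parous mice, a difference of 1.52 (SE 0.51, limma adjusted p = 0.0649), and it passed without mouse 821 (2.05, adjusted p = 0.0425) or mouse 794 (1.90, adjusted p = 0.0333). Rrm1, at 53.0, 7.69 and 13.2 against 54.0, 19.2, 37.9 and 86.4, differed by 1.23 (SE 0.60, limma adjusted p = 0.181), and passed without mouse 821 (1.99, adjusted p = 0.0489). Mcm4 and Pcna had differences of the other sign, -0.86 (SE 0.60) and -0.27 (SE 0.25). None of 10 members passed with all 7 libraries, beside 16% of genes, and 7 of 10 lay above 0. Unadjusted p was under 0.05 for 2 members, and DESeq2 called Mcm3 and edgeR none. The shares of all genes under these rules are not given here. Of 69 other replication genes 6 rose and 1 fell, among them Rfc1 and Rfc5, subunits of the clamp loader (0.88 and 1.76, limma adjusted p = 0.0124 and 0.0221), Lig1, the ligase of Okazaki fragments (1.51, limma adjusted p = 0.0174), and Rrm2b, the p53-induced reductase subunit, which fell by 0.97 (limma adjusted p = 0.0389). Here too the virgin and parous groups lie on opposite sides of the Clec2d split. With the side as a covariate Mcm3 turned to -0.22 and Rrm1 to -0.38 (both adjusted p = 0.9999), and the median of the members went from 0.57 to -0.39.

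The genotype effect on parity was tested directly in luminal cells as an interaction, over the same 15 libraries as the comparisons above. Mcm4 passed, with a parity difference lower by 2.64 in K8iΔRank than in K8imTmG cells (-2.64, SE 0.84, limma adjusted p = 0.0488), from 1.78 in controls to -0.86. Pcna followed at -1.56 (SE 0.52, limma adjusted p = 0.0564), and 9 of 10 members were negative with a median of -0.96; 12.9% of 10262 genes passed. Mcm3, Mcm7 and Rrm1 were at -0.07 (SE 1.15), -0.54 (SE 1.01) and 0.01 (SE 1.11). The Mcm4 result did not outlast the removal of single libraries: its adjusted p rose above the threshold without any 1 of mice 532, 533, 534, 538, 557, 558, 794, 821, 825 and 830, to between 0.0577 (without 558) and 0.141 (without 538), with differences of -2.08 to -2.78. Pcna passed without mouse 494 (-1.82, adjusted p = 0.0200) or 531 (-1.74, adjusted p = 0.0484). With the side of the Clec2d split as a covariate, or with all 30 libraries in 1 fit, no member passed. Among 69 other replication genes 6 had a lower parity difference in K8iΔRank cells, led by Rnaseh2b (-1.58, limma adjusted p = 0.0199), Tipin (-2.28, limma adjusted p = 0.0246) and the histone mRNA binding protein Slbp (-2.05, limma adjusted p = 0.0367), and none had a higher one.

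Basal cells keep Rank in both genotypes, so their comparison asks what luminal deletion does to the neighbouring lineage. In virgin mice Mcm3 was at 17.2, 45.5 and 5.43 in K8imTmG mice 531, 538 and 568 and at 57.7, 120, 67.7 and 73.0 in K8iΔRank mice 820, 821, 822 and 825, and Mcm5 at 10.1, 20.7 and 5.43 against 27.7, 78.1, 48.8 and 38.7. Every K8iΔRank library exceeded every control for both, and for Mcm7, at 28.7, 28.9 and 59.8 against 79.6, 92.4, 65.7 and 93.4. Mcm5 was higher by 1.99 (SE 0.49, limma adjusted p = 0.0364) and Mcm3 by 2.14 (SE 0.58, limma adjusted p = 0.0479), the only members among 10 to pass, where 8.99% of 10616 genes did; Mcm7 differed by 1.13 (SE 0.32, limma adjusted p = 0.0517). Groups did not overlap, with K8iΔRank higher, for 3 members and 14.9% of genes.

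Other members went different ways in the same basal cells. Pcna was at 560, 298 and 163 in controls and at 117, 161, 119 and 182 in K8iΔRank cells, a difference of -1.08 (SE 0.38, limma adjusted p = 0.0936), and Mcm4 at 74.7, 66.1 and 65.2 against 8.08, 104, 52.1 and 12.9, a difference of -1.27 (SE 0.73, limma adjusted p = 0.275). Mcm2 was represented by 4 reads in the 3 controls and by 93 in the 4 K8iΔRank libraries, a ratio of 5.34 (exact 95% interval 2.02 to 20.01), and Rrm2 by 2 and 103 reads, a ratio of 11.8 (3.19 to 99.0), where the intervals cover counting error only. All control libraries were Clec2d-high, with as few as 340445 reads, and all K8iΔRank libraries Clec2d-low. With the side as a covariate neither call was left: Mcm3 differed by 0.40 (adjusted p = 0.927) and Mcm5 by 0.71 (adjusted p = 0.886), and Mcm7 turned to -0.29 (adjusted p = 0.921). Mcm3 lost its call without mouse 531, 568, 820, 821, 822 or 825 (adjusted p of 0.0666 to 0.108) and Mcm5 without 531, 568, 821, 822 or 825 (0.0648 to 0.0963), and Mcm7 and Pcna passed without mouse 568 (1.48, adjusted p = 0.0383, and -1.52, adjusted p = 0.0467), as did Rrm2 without mouse 820 (3.85, adjusted p = 0.0418). Of 66 other replication genes Lig1 (2.95, limma adjusted p = 0.0076) and the histone chaperone subunit Ssrp1 (0.99, limma adjusted p = 0.0165) rose and Slbp fell by 1.83 (limma adjusted p = 0.0119). All 16 mitosis genes tested lay above 0 with a median of 1.68, and 1, the kinesin gene Cenpe, passed (3.73, limma adjusted p = 0.0431).

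In parous basal cells all 10 members were lower in K8iΔRank than in K8imTmG, with ranges that overlapped. The median was -0.41 and none passed limma, beside 0.906% of 10592 genes called (2393 had an unadjusted p under 0.05, no member among them; DESeq2 and edgeR called no member) and 46.2% of genes below 0. Mcm2 had the largest difference at -1.38 (SE 0.70, limma adjusted p = 0.263), with 7.72, 2.39, 10.6 and 22.8 normalized counts in K8iΔRank mice 787, 794, 798 and 830 against 33.5, 80.2, 7.96 and 13.7 in controls. Mcm7 was even among K8iΔRank mice at 67.3, 57.4, 56.3 and 66.7, against 119, 142, 51.8 and 58.0, a difference of -0.45 (SE 0.31, limma adjusted p = 0.405). Within the Clec2d-high side (K8iΔRank mice 794 and 830) 6 of 10 members lay below 0 and the median was -0.26.

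With parity in basal K8iΔRank cells 7 of 10 members lay below 0, and none passed limma, as no gene of 10525 did (0%; 1036 had an unadjusted p under 0.05, Mcm3 and Pcna among them; DESeq2 called 91 genes, edgeR 0, and neither a member). Mcm3, at 57.7, 120, 67.7 and 73.0 in virgin and at 57.5, 22.3, 41.8 and 56.9 in parous mice, differed by -0.86 (SE 0.33, limma adjusted p = 0.489). Pcna, at 117, 161, 119 and 182 against 195, 275, 158 and 278, differed by 0.63 (SE 0.25, limma adjusted p = 0.490). Within the Clec2d-low side (parous mice 787 and 798) the median was -0.34. The interaction in basal cells called no member and no gene of 10607 (0%; 1082 had an unadjusted p under 0.05, 4 members among them; DESeq2 called 18 genes, edgeR 0, and neither a member): Mcm7 was at -1.58 (SE 0.46, limma adjusted p = 0.321), Mcm3 at -2.52 (SE 1.01, limma adjusted p = 0.441), and Mcm5 at -2.52 (SE 1.14, limma adjusted p = 0.474).

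Between lineages the members did not move as a block. Averaged over the 4 conditions, limma called Mcm2 and Mcm6 higher and Pcna and Mcm4 lower in luminal than in basal cells, 4 of 10, where 55.7% of 11133 genes were called. Mcm2 differed by 1.59 (SE 0.39, limma adjusted p = 0.00097), with a luminal mean of 33.5 normalized counts and a basal mean of 16.6. Mcm6 differed by 0.98 (SE 0.26, limma adjusted p = 0.0022; 146 against 72.8), Pcna by -0.66 (SE 0.19, limma adjusted p = 0.0046; 177 against 259) and Mcm4 by -0.82 (SE 0.35, limma adjusted p = 0.0492; 48.0 against 77.5). Luminal and basal libraries were unevenly split, with 10 of 15 luminal and 6 of 15 basal libraries Clec2d-low; with that side as a covariate Mcm2 (1.29), Mcm6 (0.96) and Pcna (-0.70) remained called, Mcm4 (-0.76, adjusted p = 0.114) did not, and Rrm1 was called lower (-0.78, adjusted p = 0.0329). Mcm4 also lost its call without any 1 of 11 mice, up to an adjusted p of 0.168 without mouse 822.

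Of the mouse numbers, 13 stand on a luminal and a basal library, and a fit with the mouse as a replicate block compared luminal and basal cells inside each. Over these 26 libraries it called 6 of 10 members, where 55.7% of 11064 genes were called: Mcm2 (1.40, SE 0.23, limma adjusted p = 8.76e-05), Pcna (-0.74, SE 0.13, limma adjusted p = 0.00017), Mcm6 (0.76, SE 0.19, limma adjusted p = 0.0026), Mcm4 (-0.95, SE 0.33, limma adjusted p = 0.0235), Tyms (0.69, SE 0.25, limma adjusted p = 0.0256) and Mcm3 (0.43, SE 0.16, limma adjusted p = 0.0278). This fit differs from the one over 30 libraries in the block and in the 4 libraries without a partner. Only mice 557, 787 and 798 had both libraries on 1 side of the Clec2d split. The block fit has no term for the side, so lineage and side are largely mixed in it.

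The lineage difference varied with condition. In virgin K8imTmG mice 2 of 10 members were called, against 45.1% of genes: Pcna, at 129, 102 and 75.8 in luminal and 560, 298 and 163 in basal cells, was lower by 1.58 in luminal cells (limma adjusted p = 0.0037), and Mcm2 was higher, with 82 reads in luminal and 4 in basal libraries, a ratio of 4.77 (exact 95% interval 1.79 to 17.9, counting error only). With the mouse block the same 2 were called, beside 37.1% of genes, with Pcna at -2.04; DESeq2 (2.47, adjusted p = 0.0635) and edgeR (2.26, adjusted p = 0.133) did not call Mcm2. All luminal libraries here were Clec2d-low and all basal ones high. With the side as a covariate Pcna stayed called (-1.70, adjusted p = 0.0217), Mcm2 did not (2.10, adjusted p = 0.156), Rrm1 was called lower in luminal cells (-2.40, adjusted p = 0.0204), and the median of the members was -0.41. In virgin K8iΔRank mice none was called, beside 39% of genes and with no member at an unadjusted p under 0.05, but the block called 2 (35% of genes): Mcm3 (-1.56, limma adjusted p = 0.00099) and Mcm7 (-0.95, limma adjusted p = 0.0336) were lower in luminal cells, where the luminal libraries were Clec2d-high and the basal ones low. With the side as a covariate and no block, Mcm3 was at 0.31 and Mcm7 at 0.49, and no member was called.

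In parous K8imTmG mice only Mcm6 was called (1.49, SE 0.47, limma adjusted p = 0.0144; 36.2% of genes), and not without mouse 557 (1.29, adjusted p = 0.0621) or 558 (1.36, adjusted p = 0.0645). Without luminal mouse 494, a Clec2d-high library with no basal partner, Mcm3 (1.93, adjusted p = 0.0265), Mcm5 (1.96, adjusted p = 0.0368) and Mcm7 (1.20, adjusted p = 0.0347) passed as well. That fit left luminal mice 532, 534 and 558 low and 557 high, against basal libraries that were all high, so lineage and side were more mixed. The share of all genes called in it is not given here. The mouse block called 6, beside 41% of genes: Mcm3 (1.93, limma adjusted p = 3.25e-05), Mcm6 (1.61), Mcm5 (1.96), Mcm7 (1.20), Mcm2 (1.25) and Tyms (1.26), all higher in luminal cells. Within the Clec2d-high side, luminal mice 494 and 557 against the 4 basal libraries, 9 of 10 members lay below 0, with a median of -0.62, and none passed; mice 532, 534 and 558 pair a low luminal with a high basal library. In parous K8iΔRank mice Mcm4 alone was called (-1.74, SE 0.67, limma adjusted p = 0.0494; 29.7% of genes), at 33.9, 6.88, 36.2 and 15.4 in luminal against 33.9, 93.3, 44.0 and 140 in basal cells, and not without mouse 794 (-1.13, adjusted p = 0.358) or 830 (-1.29, adjusted p = 0.287). The block called 4 there (31.9% of genes): Pcna (-0.80), Mcm3 (0.94), Mcm2 (1.30) and Mcm4 (-1.74). Within the Clec2d-low side Mcm4 was at -0.97 (limma adjusted p = 0.460). With the side as a covariate and no block, no member was called in either parous condition: Mcm6 was at 1.44 (adjusted p = 0.0549) in K8imTmG and Mcm4 at -1.63 (adjusted p = 0.112) in K8iΔRank mice.

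Levels of the members in luminal and basal libraries of 1 mouse number deviated together. Over 13 mice, the deviation of the members' mean from its condition mean had r = 0.86 and rho = 0.83 between lineages, and r = 0.86 without the 2 mice farthest from the median; for the levels themselves r was 0.70, rho 0.63 and r 0.32 without the 2 farthest. Mice 532, 534, 821 and 830 lay above their condition mean in both lineages, and 557, 558, 794, 822 and 825 below it in both. In mouse 534 the deviation was 0.93 in luminal and 1.48 in basal cells, and in mouse 557 it was -1.01 and -1.57. That a shared number is a shared mouse is read from the sample titles: over all genes same-number deviations correlated at only -0.24 to 0.34. Conditions hold 2 to 4 such mice, whose deviations sum to 0 in each lineage and so are not independent. Members differed in this: r was 0.87 for Mcm3, 0.80 for Mcm2, 0.79 for Mcm7, 0.73 for Mcm5, 0.55 for Pcna, 0.54 for Mcm6 and 0.04 for Mcm4. The median of the 10 was 0.59, beside 0.39 for 71 other replication genes, 0.82 for 17 mitosis genes and 0.055 for all 11124 genes, of which 11.7% exceeded 0.5.

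**Figure D3:**
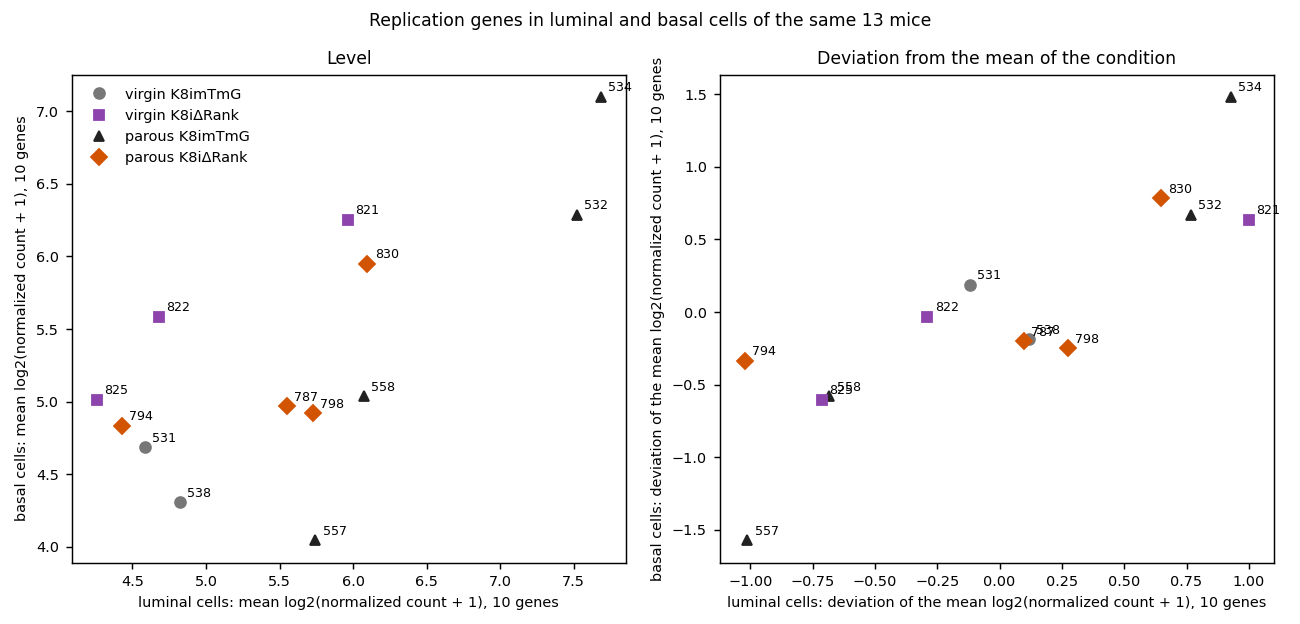
Mean log2(normalized count + 1) of the 10 members in luminal (horizontal) and basal cells (vertical) of each of 13 mice, as levels and as deviations from the condition means. Points run from low in both lineages (mouse 557 at -1.01 and -1.57) to high in both (mouse 534 at 0.93 and 1.48).

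The balance of several members over Mcm3 moved with the side of the Clec2d split. The log2 balance of Mcm4 over Mcm3 ran from -3.20 to 0.65 in Clec2d-low libraries (median -1.34) and from -0.77 to 3.36 in Clec2d-high ones (median 1.18). Inside the mixed groups the sides did not overlap: in parous luminal K8imTmG cells it was -1.85 to -1.13 in low and -0.25 and 1.08 in high libraries, and in parous basal K8iΔRank cells -0.75 and 0.07 against 1.28 and 2.02. The same held for Mcm6 over Mcm3, with medians of 0.31 in low and 1.05 in high libraries. It was at -0.20 to 0.30 against 0.99 and 2.95 in the luminal group and at -0.22 and 0.34 against 0.97 and 1.59 in the basal group. It held too for Pcna over Mcm3, with medians of 0.79 and 2.60. Here the luminal group had -0.04 to 0.25 against 1.72 and 2.51, and the basal group 1.74 and 1.89 against 2.27 and 3.57. Mcm5 over Mcm3 had medians of -0.88 in low and -0.46 in high libraries. Its sides overlapped in the luminal group (-0.84 to -0.68 against -1.17 and -0.06) and did not in the basal one (-1.50 and -0.87 against -0.46 and -0.19). In a fit of all 30 libraries with side as a covariate, Rrm1 (-1.61, SE 0.49, limma adjusted p = 0.0218) and Mcm7 (-1.43, SE 0.46, limma adjusted p = 0.0293) were lower on the high side, where 18.9% of 11133 genes were called, Mcm3, Mcm5 and Mcm2 differed by -1.74 (limma adjusted p = 0.0721), -1.28 and -1.10, and Mcm4, Mcm6 and Pcna by 0.22, -0.09 and -0.12. The balances were looked at after the values had been seen. The part of library quality in them was not tested.

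**Figure D4:**
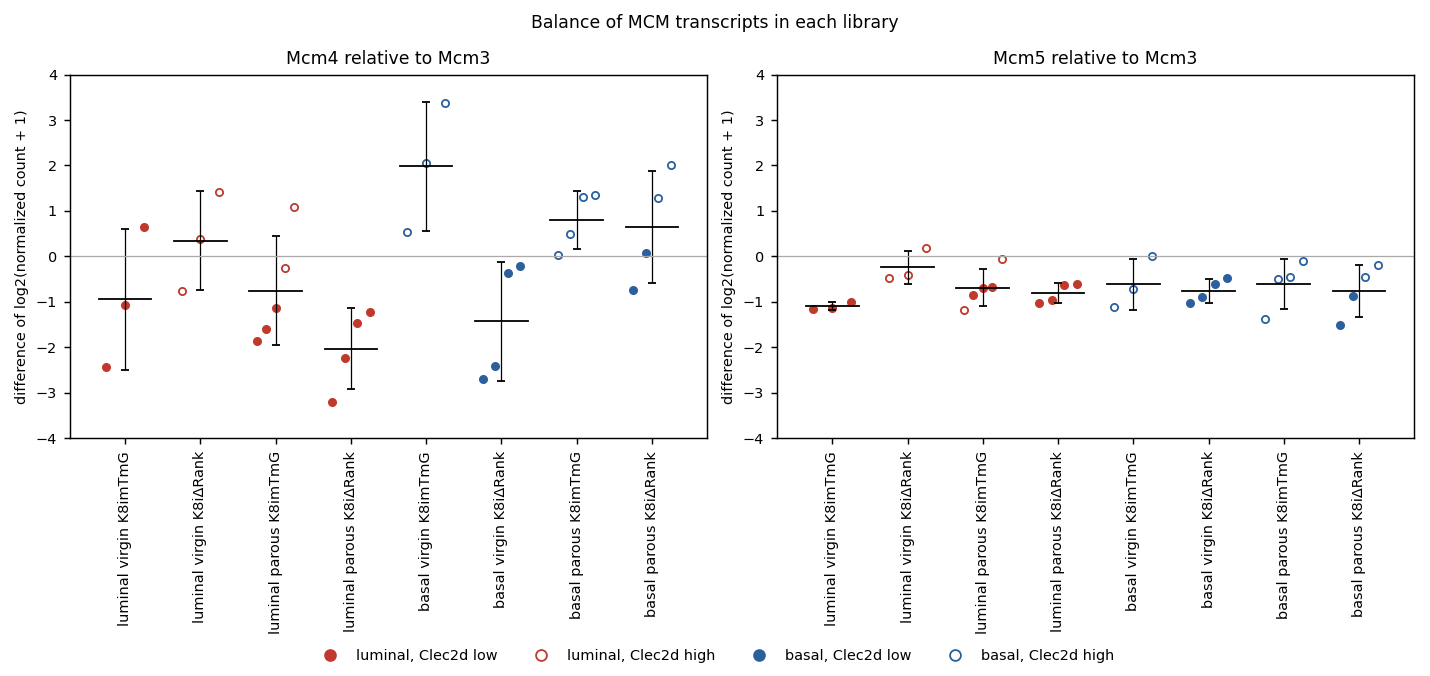
Log2 balance of Mcm4 over Mcm3 and of Mcm5 over Mcm3 in every library, by group, filled where Clec2d was low and open where it was high, with group means and SD bars. Open points lie mostly above filled ones for Mcm4 over Mcm3 (medians 1.18 and -1.34, ranges -0.77 to 3.36 and -3.20 to 0.65) and are less far apart for Mcm5 over Mcm3 (medians -0.46 and -0.88).

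Among themselves the members varied together across mice. After subtraction of the 8 group means, the 45 pairs of members had correlations from 0.31 to 0.95 over 30 libraries, with a median of 0.68. Mcm3 and Mcm5 stood at 0.95, Mcm5 and Rrm2 at 0.89 and Mcm4 and Mcm6 at 0.85, whereas Mcm4 and Mcm7 stood at 0.31 and Mcm6 and Mcm7 at 0.39. The points share libraries and depth: log10 reads correlated at 0.50 with the deviation of the members' mean. Of genes outside the fixed lists, the 10 whose deviations were most like that mean included Smc2 (0.93), Dtl (0.93), Esco2 (0.93), Tacc3 (0.93), Melk (0.92), Bard1 (0.91), Fam111a (0.90), Atad2 (0.90) and Tcf19 (0.90), and by level Esco2 (0.94), Dtl, Fam111a, Bard1 and Melk (0.90 to 0.91). Esco2 sets cohesion in S phase and Smc2 is a condensin subunit. Within the lists E2f1, the S phase transcription factor, stood at 0.94, the checkpoint mediator Clspn at 0.93 and the helicase-like Hells at 0.92, and Mki67 at 0.85. Of 71 other replication genes 46 exceeded 0.5 (median 0.61), as did 17 of 17 mitosis genes (median 0.81) and 7.17% of 11133 genes.

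**Figure D5:**
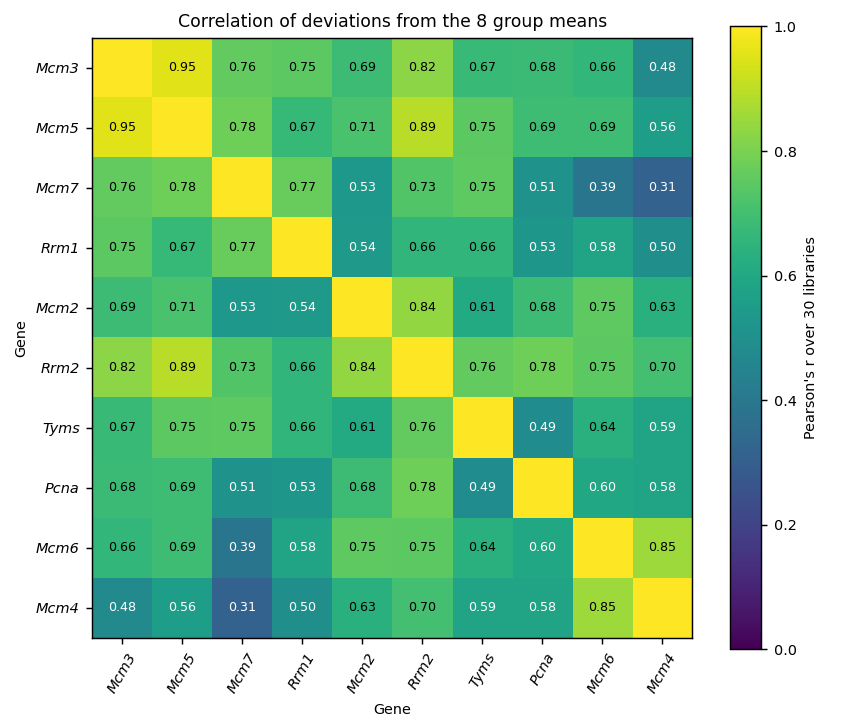
Pearson correlations between the 10 members over 30 libraries, after subtraction of the 8 group means, in shades from low to high. The brightest pair is Mcm3 with Mcm5 (0.95) and the dimmest Mcm4 with Mcm7 (0.31).

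Hormone receptors and milk genes were placed on the same scale. Pgr and Esr1, the steroid receptors of hormone-sensing luminal cells, stood at -0.63 and -0.50 with the members' deviation, the prolactin receptor Prlr at -0.32 and Areg, a growth factor of hormone-sensing cells, at 0.002. The casein genes Csn2 and Csn3 stood at 0.57 and 0.35, Tnfrsf11a at 0.47, Clec2d at -0.35, and the keratins Krt8 and Krt5 at -0.17 and -0.27. These genes were picked after values had been seen. For each marker list the mean log2 deviation of its genes was correlated in the same way. The value was -0.24 for luminal markers, 0.23 for basal markers and 0.53 for milk proteins. It was -0.04 for immune markers (2 of 12 in the table), 0.02 for fibroblast and 0.20 for endothelial markers, and -0.13 for Fabp4, the adipocyte marker in the table. Basal libraries held more of the endothelial and adipocyte markers than luminal ones, with endothelial sums of 43.8 to 683 against 3.36 to 37.8 and Fabp4 of 111 to 2587 against 4.40 to 50.5; their part in the lineage differences was not tested.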

How the data were processed

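RNA of FACS-sorted luminal (GFP+, CD49f low CD24 high) and basal (CD49f high CD24 low) cells was made into QuantSeq 3′ libraries with UMIs. Per the study's methods and the submitters' processing notes, the authors trimmed reads with BBDuk, extracted UMIs with UMI-tools and aligned to GRCm39 with Bowtie2. They then removed duplicates with UMI-tools and counted on the Gencode vM26 annotation. SAMtools, bedtools and FastQC 0.11.9 were also used. The deposited values are a signal: read counts that the authors divided by DESeq2 size factors, for 11137 genes kept when above 10 in at least 25% of samples. Whole reads were recovered from the step of each library, within 0.1 read for 100% of values, at 340445 to 3130419 reads a library; 3 reads were taken as the floor. All columns were used (0 unused).

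Samples were grouped by lineage, stage and genotype of their labels. Each comparison was tested with limma 3.58.1 (trend) on log2(normalized count + 1), over all genes above 10 in at least 25% of the libraries of the fit, with Benjamini-Hochberg adjustment, called below 0.05. Fold changes of low genes depend on this scale. For Mcm2, luminal against basal in virgin K8imTmG mice, the log2 difference was 3.21 by limma, 2.47 by DESeq2 and 2.26 by edgeR. The number in a sample's title was taken as its mouse. This pairs 13 mice across lineages: over all genes, the correlation of same-mouse deviations was -0.24 to 0.34 (median 0.09), over 0.1 in 6 of 13, so the pairing comes from the labels. Fits within 1 lineage hold 1 library a mouse, so their p-values measure the spread between mice. Fits over both lineages without the block treat libraries as independent, although 13 mice gave both lineages. Their p-values thus ignore the pairing. In the block fit p-values measure how the luminal-basal difference varies between mice. No pair of libraries of 1 group was a duplicate (chi-square per degree of freedom 2.33 to 38.1 over 43 pairs).

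Members and gene lists were chosen with earlier results of these data known. Named are the 10 members, up to 3 genes per direction from the other replication lists with the lowest adjusted p below 0.05, Mki67, the 10 genes outside the lists most correlated with the members (5 by level), Tnfrsf11a and Clec2d; Cenpe, and the receptors, milk and marker genes correlated at the end, were named after their values were seen. Other settings tried were array weights, quantile normalization, a pseudocount of 0.5 or of 4, dropping the filter or asking for a mean of 50, all 30 libraries in 1 fit, each mouse left out, the mouse block, 1 side of the Clec2d split (cut at 20), and DESeq2 1.42.0 and edgeR 4.0.16 on recovered reads; the side as a covariate and reads thinned to the shallowest library were added after the data had been seen. For group comparisons refitted without 1 mouse or with the side as a covariate, the share of all genes called is not given. Methods were tested on simulated data. Promoters were read from GRCm39 with GENCODE vM39. Software was R 4.3.3, Python 3.11.15, matplotlib 3.10.9, scipy 1.17.1, pandas 2.3.3 and numpy 2.4.6. A gene among those most like the members' mean is not reported here.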

Additional observations from a re-analysis of the deposited data

Results flagged for a closer look

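In parous basal K8iΔRank cells, mouse 830 stood apart from its 3 group mates for Rrm2 (35.7 normalized counts against 3.52 to 5.58), for Tyms (23.8 against 11.4 to 13.3) and for the mean log2 level of the 10 members (5.95 against 4.83 to 4.97). Each gap exceeded Dixon's 95% critical value; 3 of 55 member and group combinations did so, and chance gives about 1 in 20. Luminal cells of the same mouse were the highest of their group too, at 36.3 for Rrm2 and 40.7 for Tyms.

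The parity difference of Mcm4 in luminal cells differed between genotypes, with an interaction of -2.64 (SE 0.84, limma adjusted p = 0.0488), from 1.78 in K8imTmG to -0.86 in K8iΔRank cells. By the same test 12.9% of 10262 genes passed. Mcm4 lost its call when single mice were left out, as without 538 (limma adjusted p = 0.141). It was also lost with all 30 libraries in 1 fit (limma adjusted p = 0.0800) and with the side as a covariate there (limma adjusted p = 0.541). Virgin and parous K8iΔRank libraries lie on opposite sides of the Clec2d split, so side and parity cannot be told apart in that arm. In the K8imTmG arm they are partly mixed, since virgin libraries were all Clec2d-low and parous ones stood on both sides.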

How the results depend on the processing

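Of 2873 values of single members under an alternative, 2709 stayed on their side of the threshold, 66 lost and 98 gained a call, and none that was called changed sign; 154 uncalled values did. In numbers of members called, array weights gave the most: 10 for luminal parity in K8imTmG, 7 for lineage in parous K8imTmG, 6 for genotype in parous luminal, 5 for genotype in virgin basal, 4 for the luminal interaction, and 1 each for genotype in virgin luminal and parous basal cells and for basal parity in K8iΔRank. DESeq2 called 7 for luminal parity in K8imTmG, 4 for virgin basal genotype, 3 each for parous luminal genotype and the luminal interaction, 2 for lineage in parous and 1 in virgin K8imTmG, and 1 for luminal parity in K8iΔRank. edgeR called 1 for virgin basal genotype, 2 for the luminal interaction and 1 for lineage in virgin K8imTmG. In 1 fit of all 30 libraries the counts were 1 for virgin basal genotype, 1 for luminal and 1 for basal parity in K8imTmG and 0 for the luminal interaction; with the Clec2d side as a covariate they were 0, 3, 1 and 0, and 0 for lineage in both parous conditions. Clec2d-low libraries alone gave 9 for luminal parity in K8imTmG and 0 for lineage in parous K8iΔRank, and Clec2d-high ones 0 for lineage in parous K8imTmG. The mouse as a replicate block called 2, 6 and 4 for lineage in virgin K8iΔRank, parous K8imTmG and parous K8iΔRank; it was run for lineage comparisons only. Without a filter, or with a pseudocount of 0.5, virgin basal genotype called 1 and the luminal interaction 0, and with the latter lineage in parous K8iΔRank 0. A mean of at least 50 gave 2 for the mean lineage difference, 0 for parous K8iΔRank and 1 for virgin K8imTmG. At that filter Mcm2, with a luminal mean of 33.5 and a basal mean of 16.6, was no longer tested for lineage. Its calls there were thus removed by the filter. The same filter added calls of Pcna in the luminal interaction (limma adjusted p = 0.0458) and of Mcm7 for virgin basal genotype (limma adjusted p = 0.0407). Thinned reads gave 1 for virgin basal genotype, 1 for luminal parity in K8iΔRank, 1 for lineage in virgin K8imTmG and 0 in both parous conditions. Leaving out each mouse gave 0 to 4 for luminal parity in K8imTmG, 0 to 2 in K8iΔRank, 0 to 2 for virgin basal genotype, 3 to 4 for the mean lineage difference, 0 to 4 and 0 to 1 for lineage in parous K8imTmG and K8iΔRank, 0 to 2 for the luminal interaction, and an unchanged count elsewhere. The counts stand without the share of all genes called under each setting. They describe shifts in calls and are not a result about the members. The cause of these shifts was not tested. Depth limits Rrm2 and Mcm2, since 3 reads are worth 1.14 to 16.3 normalized counts.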
